A study of Homo sapiens with 2 samples.

Results

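The genes of the cytosolic ribosomal proteins were compared between A549/DDP, a cisplatin-resistant line, and A549, the human lung adenocarcinoma line it was derived from. A gene was counted when its symbol was RPL or RPS followed by digits and an optional A, or RPLP1 or RPLP2, and when at least 1 probe set on the array was annotated with that gene alone. These conditions were met by 51 of the 19775 genes measured by such probe sets, with 109 probe sets between them. RefSeq lists 75 coding genes with a fitting symbol. Of the rest, 15 were read only by probe sets shared with other genes, which name no gene here, and 9 were not analysed here.

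Total RNA of each line was hybridised to 1 Affymetrix HG-U133 Plus 2.0 array, on which each gene is read by sets of short probes, to look for genes whose expression goes with resistance. The A549/DDP sample was labelled chemoresistant and the A549 sample parental, both lines were lifted with trypsin before Trizol extraction, and no drug exposure at harvest is given in the labels. With 1 array for each line there is no replicate, so no difference below has a spread between samples or a p-value, and clone, passage and resistance cannot be told apart. All values are log2 signals as deposited, differences are A549/DDP minus A549 on that scale, and a gene was represented by the probe set with its highest mean signal.

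ZNF300, the zinc-finger gene pursued by the study, had a log2 signal of 5.76 on the array labelled A549/DDP and 7.59 on the A549 array. That direction is opposite to the one the study describes for the resistant cells, and a free-text note on the same sample mentions ZNF300 overexpression, so the array is called by its label throughout. Whether the arrays were exchanged was not tested, and an exchange would turn the sign of every difference below. Expressed genes were those at or above the median signal of their array on at least 1 of the arrays, a floor of 6.18 for the array labelled A549/DDP and 6.22 for the A549 array. Lower values were raised to it before a difference was taken, and 13159 genes were expressed, all 51 ribosomal protein genes among them. Of 6 epithelial markers, 5 were expressed. KRT8 had 11.99 on the array labelled A549/DDP and 10.83 on the A549 array, KRT18 14.50 and 13.12, while the junction protein CDH1 had 2.52 and 7.30 and EPCAM 4.68 and 7.05 in the same order. Of 4 measured lung lineage markers 3 were expressed, of 4 haematopoietic markers 2, of 4 endothelial markers 1 and of 6 fibroblast markers 3. KRT19, SFTPC, PTPRC, CD14, PECAM1, CDH5, VWF, COL3A1, PDGFRB and LUM were under the floor on both arrays. CD3E had 6.93 on the array labelled A549/DDP and 5.72 on the A549 array, HBB 6.03 and 7.08, and KDR 7.67 and 6.65. In the same order, COL1A1 had 9.77 and 8.79, COL1A2 6.26 and 5.74, and DCN 6.11 and 6.59. The summed linear signal of the haematopoietic list was 251 on the array labelled A549/DDP and 249 on the A549 array, that of the endothelial list 294 and 226, and that of the fibroblast list 1069 and 686. Their part in the differences below was not tested.

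The cytosolic ribosome joins a small subunit, which reads the mRNA, to a large subunit, which forms the peptide bond and passes the growing chain through an exit tunnel. Each subunit is built in the nucleolus from ribosomal RNA and from proteins made in near equal numbers, so their genes are expressed strongly and together in growing cells. Most of their mRNAs begin with a 5′ terminal oligopyrimidine (TOP) tract, a C followed by further C or T bases, through which the kinase complex mTORC1 and the RNA-binding protein LARP1 control their translation and stability.

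Start sites from the RefSeq promoter table (GRCh38.p14) are shown for members at both ends of the range of differences, for the brightest member and for relatives that are set against them below. Each line gives the strand in view 5′ to 3′, with 10 bases before the start and 20 from it. Capitals mark the unbroken run of C and T that begins with a C at the start. A line with no capitals has no such run at that position.

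RPL39 (chrX:119791611-119791640, minus strand): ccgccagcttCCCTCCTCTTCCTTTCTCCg
RPS9 (chr19:54200848-54200877, plus strand): gcttccgcgcCTCTTTCTCagtgaccgggt
RPS6 (chr9:19380217-19380246, minus strand): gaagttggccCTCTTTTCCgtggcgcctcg
RPS19 (chr19:41860245-41860274, plus strand): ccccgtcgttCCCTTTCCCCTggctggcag
RPL31 (chr2:101002279-101002308, plus strand): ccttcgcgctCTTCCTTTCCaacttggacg
RPL37A (chr2:216498834-216498863, plus strand): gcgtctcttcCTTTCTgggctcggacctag
RPS16 (chr19:39435930-39435959, minus strand): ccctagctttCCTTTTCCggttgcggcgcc
RPL6 (chr12:112411423-112411452, minus strand): gtatcctcagtgaatcagaaccagaaaaag
RPS4X (chrX:72277229-72277258, minus strand): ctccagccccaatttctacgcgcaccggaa
EEF2 (chr19:3985444-3985473, minus strand): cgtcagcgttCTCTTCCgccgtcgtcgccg
RPL22 (chr1:6199576-6199605, minus strand): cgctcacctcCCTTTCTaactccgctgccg
RPL22L1 (chr3:170870176-170870205, minus strand): ccgtagcttcCTCTCTgctctcgcggccga

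The run at the start was longest in RPL39, at 19 bases, and was 11 bases in RPS19, 10 in RPL31 and 9 in both RPS6 and RPS9. RPL37A and RPL22L1 had runs of 6 bases, and RPL6 and RPS4X had none. The table held 45 of the 51 members, and 34 of them (75.6%) had a run of at least 5 bases at a listed start, on the strand of the gene. Among other expressed genes 711 of 10593 (6.71%) had one, as did 1404 of all 27305 genes listed there (5.14%). When the run was allowed to begin within 5 bases of the start, the share was 88.9% of the members and 29.1% of other expressed genes. The ribosomal proteins of mitochondria, which translate a separate genome, had a run at the start in 5 of 64 genes (7.81%).

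Other motifs were searched on both strands over the 250 bases before and the 50 bases after a start. The ETS core CCGGAAG was present for 35.6% of the members, 21.2% of other expressed genes and 12.2% of all genes of the table. The YY1 core AAGATGGC was present for 8.89% of the members, 6.18% of other expressed genes and 3.52% of all genes.

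The ribosomal protein genes were among the brightest on both arrays, and nearly all had slightly less signal on the array labelled A549/DDP. Their median log2 signal was 15.18 on the array labelled A549/DDP and 15.54 on the A549 array. A lower signal on the array labelled A549/DDP was found for 50 of the 51, against 49.6% of all expressed genes. The median difference was -0.28, or 1.21-fold lower, while that of all expressed genes was 0.00. Differences lay between -0.48 for RPL12 and 0.36 for RPLP2, the only gene with a higher signal on the array labelled A549/DDP. The count of lower genes depended on the scaling. After quantile normalization 11 members had the higher signal on the array labelled A549/DDP, and 48.3% of all expressed genes were lower. After centring on the other genes with a mean signal of at least 15, 7 members were higher and 36.2% of all expressed genes lower.

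No ribosomal protein gene differed by a large fold. None of the 51 passed the 3-fold threshold of the study in either direction, against 2.14% of all expressed genes upward and 2.18% downward. None reached 2-fold, which 6.13% of expressed genes did upward and 7.4% downward, or 1.5-fold, which 15.6% did upward and 18% downward. At least 1.2-fold lower were 33 of the 51 genes, against 32.6% of all expressed genes, and 1 was at least 1.2-fold higher, against 31.7%. The count at least 1.2-fold lower turned on the scaling. It was 20 after median centring or loess and 5 after quantile normalization. After centring on the other genes with a mean of at least 15 it was 1. The share of all expressed genes at this fold was taken only as deposited, so these counts have no matched share beside them.

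The members were also set beside sets of bright genes, and the larger of these includes the bright members themselves. Among the 3290 brightest expressed genes, with a mean log2 signal of at least 10.9, 0.851% passed 3-fold upward and 1.34% downward, 3.98% passed 2-fold upward and 4.8% downward, 12.9% passed 1.5-fold upward and 12.5% downward, and 31.4% passed 1.2-fold upward and 27.1% downward. Among the 188 other genes with a mean of at least 14 0 passed 3-fold upward and 0.532% downward, 1.06% passed 2-fold upward and 4.26% downward, 6.91% passed 1.5-fold upward and 9.57% downward, and 21.8% passed 1.2-fold upward and 28.2% downward. As deposited, the members had no difference of 1.5-fold or more at their brightest probe set, while both sets did, and no test of this was made. Other genes are taken here and below as all those outside the symbol pattern. Those with a mean of at least 14 include the ribosomal protein genes RPS4X, RPS4Y1 and FAU. They also include the near copies RPL22L1, RPL36AL and RPS27L.

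**Figure D1:**
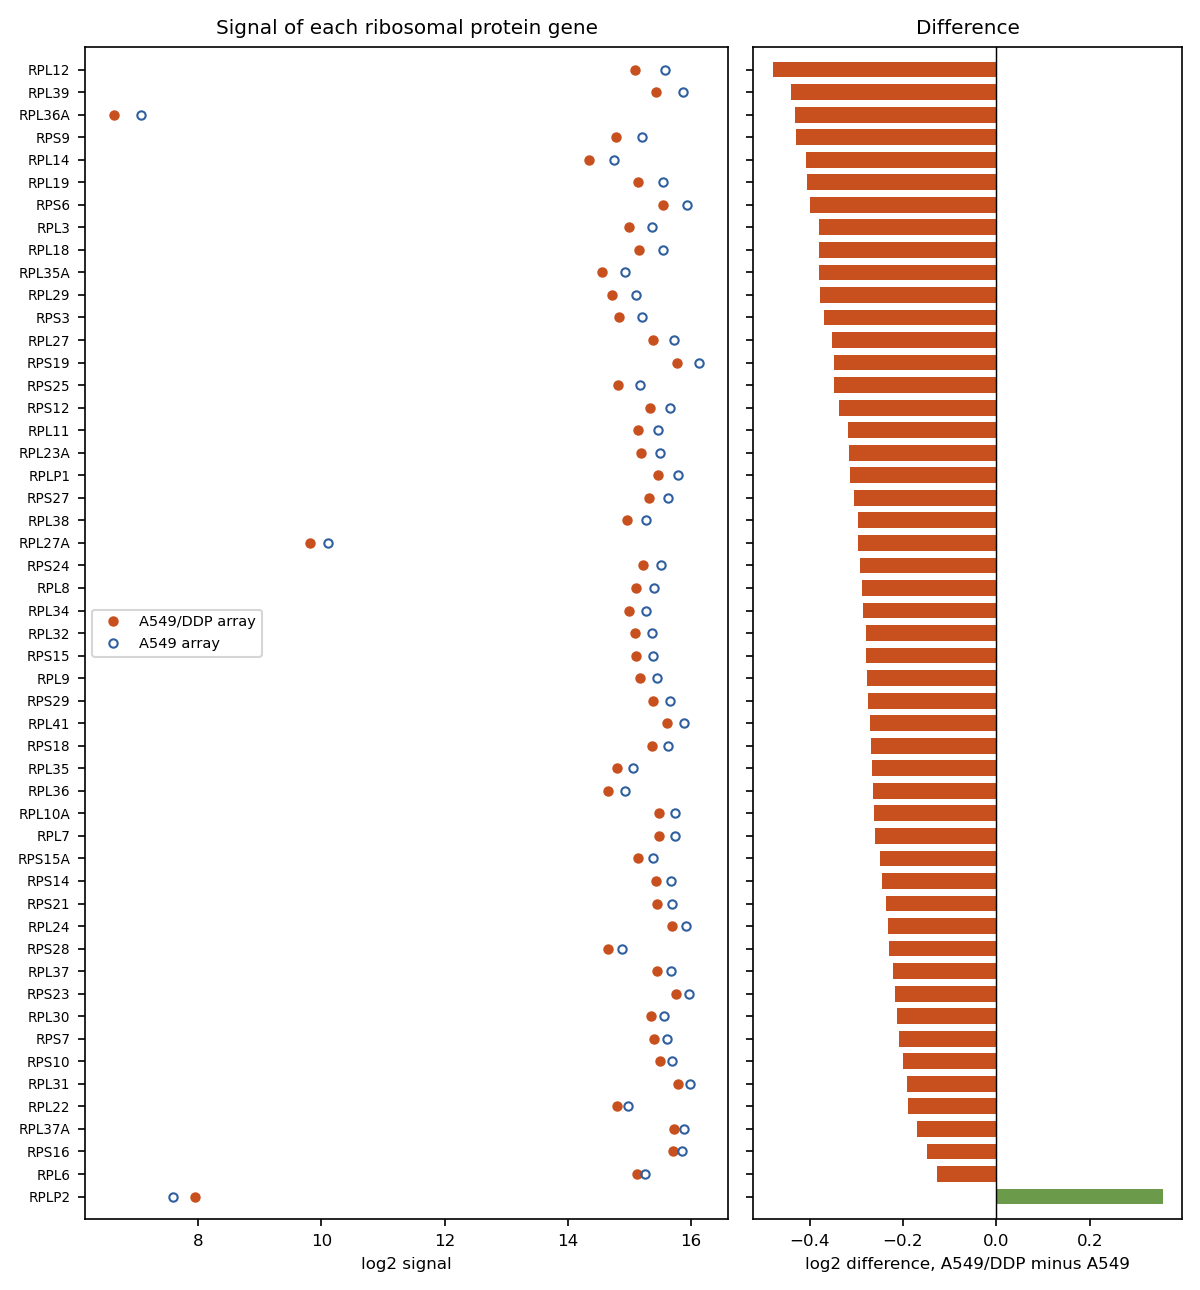
Each row is a ribosomal protein gene, ordered by its difference. The left panel plots the log2 signal on the array labelled A549/DDP (filled) and on the A549 array (open), and the right panel the log2 difference, A549/DDP minus A549, with 1 array for each line. The bars of 50 genes point below 0 and that of RPLP2, in green, above it.

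Around the factor-binding site of the large subunit, RPL12 had the lowest difference of the members and RPLP2 the highest, with RPLP1 between them. RPL12, which forms the base of the stalk that recruits translation factors, had 15.09 on the array labelled A549/DDP and 15.57 on the A549 array, the largest difference among the members at -0.48. RPLP1, an acidic protein of the stalk itself, had 15.47 on the array labelled A549/DDP and 15.79 on the A549 array, a difference of -0.31. Its partner RPLP2 had 7.94 on the array labelled A549/DDP and 7.59 on the A549 array. RPLP2 binds RPLP1 as a pair in the ribosome, yet its probe sets were dim here, and the second of them differed by 0.01.

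Of 7 listed genes for proteins that line or surround the exit tunnel, 4 were measured, with a median of -0.36 beside -0.28 over all members. All 4 had less signal on the array labelled A549/DDP, as did 50 of the 51 members. RPL39, a very small protein in the tunnel wall, had 15.44 on the array labelled A549/DDP and 15.88 on the A549 array, a difference of -0.44. RPL19, near the tunnel exit, had 15.15 on the array labelled A549/DDP and 15.56 on the A549 array, a difference of -0.41. RPL23A, a docking site for factors that meet the new chain, differed by -0.32, and RPL35, beside it at the exit, by -0.27. Each of these genes was read by 1 probe set.

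Elsewhere in the large subunit, RPL3, which reaches towards the peptidyl transferase centre, had 14.99 on the array labelled A549/DDP and 15.37 on the A549 array, a difference of -0.38. RPL14 had 14.35 on the array labelled A549/DDP and 14.76 on the A549 array, at -0.41. RPL11, which binds 5S ribosomal RNA and, when free of the ribosome, the p53 inhibitor MDM2, had 15.15 on the array labelled A549/DDP and 15.46 on the A549 array, at -0.32. The smallest difference in a bright gene was that of RPL6, with 15.13 on the array labelled A549/DDP and 15.26 on the A549 array, at -0.13. RPL37A at -0.17, RPL22 and RPL31, both at -0.19, followed it. Over the 32 large-subunit genes the median was -0.29 and 31 were lower.

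In the small subunit all 19 genes had less signal on the array labelled A549/DDP, with a median of -0.28. RPS9, a protein of the mRNA entry site, had 14.78 on the array labelled A549/DDP and 15.21 on the A549 array, a difference of -0.43. RPS6, the substrate of the S6 kinases downstream of mTORC1, had 15.54 on the array labelled A549/DDP and 15.94 on the A549 array, at -0.40. RPS16, whose tail touches the tRNA in the P site, had 15.71 on the array labelled A549/DDP and 15.86 on the A549 array. At its brightest probe set this was the smallest small-subunit difference, at -0.15. Its bright sets 201258_at and 213890_x_at differed by -0.36 and -0.34, so that place rests on the choice of probe set. RPS10, which is ubiquitinated on collided ribosomes, and RPS7 differed by -0.20 and -0.21.

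The proteins of the decoding site and the mRNA channel had a median of -0.25 over the 4 of 6 listed genes that were measured. RPS3, at the mRNA entry, differed by -0.37 and RPS15, whose tail extends into the decoding site, by -0.28. RPS28, at the mRNA exit, differed by -0.23 and RPS23, a protein of the decoding centre, by -0.22. RPS19, the gene most often mutated in Diamond-Blackfan anaemia, was the brightest member, with 15.78 on the array labelled A549/DDP and 16.13 on the A549 array. Of 14 genes listed for that anaemia, 9 were measured, and their median was -0.29. All 9 had less signal on the array labelled A549/DDP, as did 50 of the 51 members.

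Except for 3 genes, the members formed a narrow band. A mean log2 signal of at least 14 was found for 48 of them, and all 48 had less signal on the array labelled A549/DDP, by differences between -0.48 and -0.13, with an SD across genes of 0.08. The other 188 genes with a mean of at least 14 had a median of -0.05 and an SD of 0.47. Of them 53.2% had less signal on that array. A mean of at least 15 was reached by 39 of the 48 members but by only 42 of those 188. At that level the other genes had an SD of 0.26, and 76.2% of them had less signal on that array. By the single-gene probe sets used here, the dim members were RPL36A, RPL27A and RPLP2. RPL36A had 6.64 on the array labelled A549/DDP and 7.07 on the A549 array, and RPL27A 9.82 and 10.11 in the same order. Whether probe sets shared with other genes read these members more brightly was not examined. Across the 48 bright genes the levels on the arrays correlated with Pearson's r = 0.97, as a description over genes that share both arrays.

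The order of members within the band was hardly resolved. Among 14 genes with more than 1 bright probe set, 32 probe sets in all, the pooled SD of the difference within a gene was 0.07, close to the SD of 0.08 between members. Neighbours in the order lay at most 0.04 apart, less than that within-gene SD, while the ends of the order lay 0.35 apart. The widest range within a gene was 0.22. All 66 bright probe sets of the members had less signal on the array labelled A549/DDP, between -0.64 and -0.13. The lowest of them, 214317_x_at of RPS9, was 1.56-fold lower, while the set that represented RPS9 differed by -0.43. Of the members read by a bright probe set, the 10 with a plain _at set had a median of -0.29, the 26 with an _s_at set, whose probes match several transcripts, -0.27, and the 12 with an _x_at set, whose probes can cross-hybridise, -0.33.

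Probe sets annotated with several genes, of which at least 1 fitted the symbol pattern, gave a similar picture without naming a gene. There were 64 of them, and 49 listed only genes of the pattern, small nucleolar RNAs or microRNAs. Of the 45 that were bright, 44 had less signal on the array labelled A549/DDP, with a median of -0.32 and a range between -0.96 and 0.33.

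The members lay on 19 chromosomes, and the X-linked genes among them were RPL39 at -0.44 and RPL36A at -0.43. RPS4X, an X-linked protein of the small subunit whose symbol lies outside the pattern, had 15.40 on the array labelled A549/DDP and 15.87 on the A549 array, a difference of -0.47. The 47 bright autosomal members had a median of -0.28. FAU, which encodes the small-subunit protein eS30 fused to a ubiquitin-like domain, had 15.15 on the array labelled A549/DDP and 15.33 on the A549 array, a difference of -0.18.

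At the very top of the signal range other genes too were mostly lower. The highest gene signal was 15.80 on the array labelled A549/DDP and 16.13 on the A549 array. Among genes with a mean signal of at least 15, the 39 members had a median of -0.28, and the 42 other genes had a median of -0.20 with 32 lower (76.2%). Between 14 and 15, the 9 members had a median of -0.35, while the 146 other genes had 0.04. In each bin of other genes below 14, the median lay between -0.06 and 0.08. Of the 100 brightest genes 44 were members, and 42 of the other 56 had less signal on the array labelled A549/DDP, with a median of -0.18. The part of brightness in the members' difference was not tested.

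**Figure D2:**
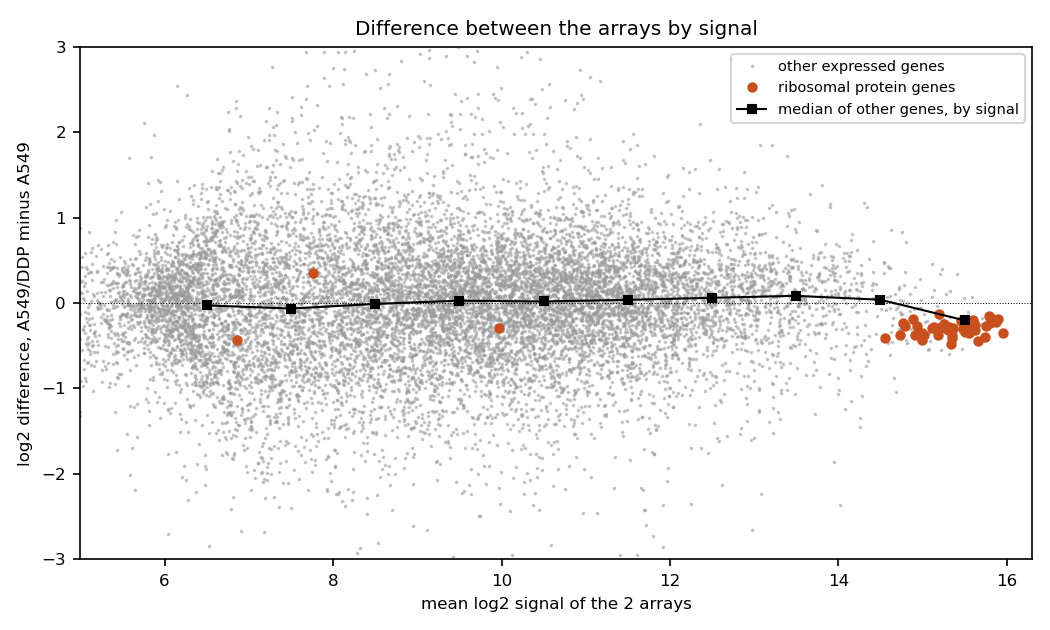
The log2 difference, A549/DDP minus A549, is plotted against the mean log2 signal for expressed genes, with ribosomal protein genes as large points and the median of other genes in each bin of 1 log2 unit as squares. Genes beyond 3 log2 units or under a mean of 5 lie outside the axes. The members crowd at the right end just below 0, where the median of other genes is -0.20.

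Bright genes outside the ribosome differed in both directions. EEF2, the elongation factor that moves the ribosome along the mRNA, had 15.01 on the array labelled A549/DDP and 15.61 on the A549 array, a difference of -0.60. On the higher side, the cytoskeletal actin gene ACTB differed by 0.46 and the chaperone HSP90AA1 by 0.34. ACTB and HSP90AA1 were chosen after their values were seen.

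Dimmer probe sets of the same members scattered widely and included the only differences of at least 3-fold. Under a mean of 14, 37 further or dim probe sets of 26 genes were over the floor on at least 1 array, of which 25 were lower and 12 higher on the array labelled A549/DDP, with a median of -0.23. At least 3-fold lower were 2 of them and at least 3-fold higher 0, against 2.11% and 1.85% of all such probe sets on the array, and at least 1.5-fold lower were 9, against 18%. At least 1.5-fold higher were 2, against 16%.

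The large differences belonged to a few genes whose bright probe set lay within the band. For RPL31, the probe set 200962_at had 10.26 on the array labelled A549/DDP and 12.66 on the A549 array, a difference of -2.40, and 221593_s_at differed by -0.73, while the bright set 200963_x_at differed by -0.19. For RPL37, 224763_at had 9.99 on the array labelled A549/DDP and 12.19 on the A549 array, a difference of -2.20, 224767_at differed by -1.42 and 224766_at by -0.83, while the bright set differed by -0.22. Probe sets of the same gene thus differed by more than 1 log2 unit, and which part of the transcript each of them reads was not determined.

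RPS28 had the same split, with 208903_at at 7.44 on the array labelled A549/DDP and 8.87 on the A549 array, a difference of -1.43, beside -0.23 for its bright set. RPL22 had 214042_s_at at -0.78 and 221726_at at -0.67, beside -0.19 to -0.32 for its 3 bright sets. In the opposite direction, 238824_at of RPS29 had 6.94 on the array labelled A549/DDP and 5.71 on the A549 array, and 1563014_at of RPS15 had 6.87 and 6.15 in the same order. Both were under the floor on the A549 array, so these differences are at least 0.72 and 0.65. RPL37 and RPS29 were chosen for mention after their values were seen.

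**Figure D3:**
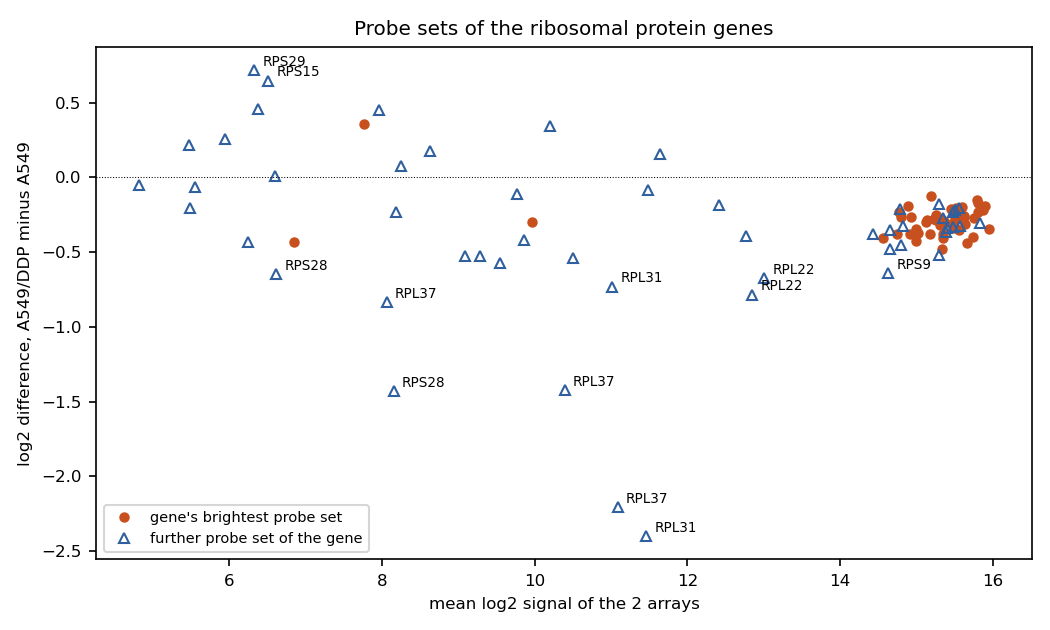
Each point is a single-gene probe set of a ribosomal protein gene over the floor on at least 1 array, with its mean log2 signal on the x axis and its log2 difference, A549/DDP minus A549, on the y axis. Circles are the brightest set of a gene and triangles its further sets, labelled where the difference is at least 1.5-fold. The bright sets lie between -0.64 and -0.13, whereas the dimmer ones reach -2.40.

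Duplicated genes that encode near copies of ribosomal proteins did not share the narrow band. Of 8 such paralogs 7 were expressed, and their differences ran between -1.83 and 0.88 with a median of -0.07. RPL10L, a retrotransposed copy of RPL10 that is used in the testis, had 6.83 on the array labelled A549/DDP and 8.66 on the A549 array, a difference of -1.83 or 3.56-fold lower, past the 3-fold threshold but close to the floor. With the floor at the 75th percentile its difference was -0.02, a bound set by that floor, and the threshold was no longer passed. RPL39L, the copy of RPL39 found mainly in testis and in some tumours, had 10.31 on the array labelled A549/DDP and 9.43 on the A549 array, a difference of 0.88, opposite in sign to RPL39. Probes can cross-hybridise between near-identical copies, and their part was not tested.

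RPL22L1, which can replace RPL22, had 13.96 on the array labelled A549/DDP and 14.46 on the A549 array, a difference of -0.51. RPL36AL had 13.93 on the array labelled A549/DDP and 14.44 on the A549 array, at -0.52. RPS27L, a p53-inducible copy of RPS27, had 14.64 on the array labelled A549/DDP and 14.72 on the A549 array, at -0.07. RPL7L1 differed by 0.04 and RPL26L1 by 0.09, and RPL3L, the muscle form of RPL3, stayed below the floor on each array.

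The translation factors and other mRNAs long known to carry a TOP tract lay near the members. Of 17 listed genes 15 were expressed, 13 of them had less signal on the array labelled A549/DDP, and the median was -0.26. None was 2-fold different and 3 were at least 1.5-fold lower, against 18% of all expressed genes. EIF4B, a cofactor of the helicase that opens mRNA leaders, had 12.63 on the array labelled A549/DDP and 13.31 on the A549 array, at -0.68. EIF3E, a subunit of the initiation factor eIF3, had 14.31 on the array labelled A549/DDP and 14.92 on the A549 array, at -0.61. EEF2, given above, was the next lowest. HNRNPA1, a splicing regulator, differed by 0.21 and IPO5, an import receptor for ribosomal proteins, by 0.18.

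Among genes with a mean signal of at least 14, the difference was set beside the tract read from the promoter table. The 31 members with a tract had a median of -0.30 and the 11 without one -0.28. The split was made at the exact start base, so RPL10A, RPL19, RPL3, RPL32, RPS7 and RPS28 counted as without one. In each of these genes a run of at least 5 bases began within 5 bases of the start. The 29 other genes with a tract had a median of -0.19, and 22 of them (75.9%) had less signal on the array labelled A549/DDP. The 130 other genes without a tract had a median of 0.04, and 60 of them (46.2%) were lower. At a mean of at least 15 these medians came together, at -0.20 for the 9 other genes with a tract, all of them lower, and -0.18 for the 24 without one, of which 16 were lower. RPL6 and RPS4X, printed above without a tract, lay at opposite ends of the ribosomal protein band, though RPS4X was counted with the other genes. The tract and the brightness of a gene go together here, and neither was tested as a cause.

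**Figure D4:**
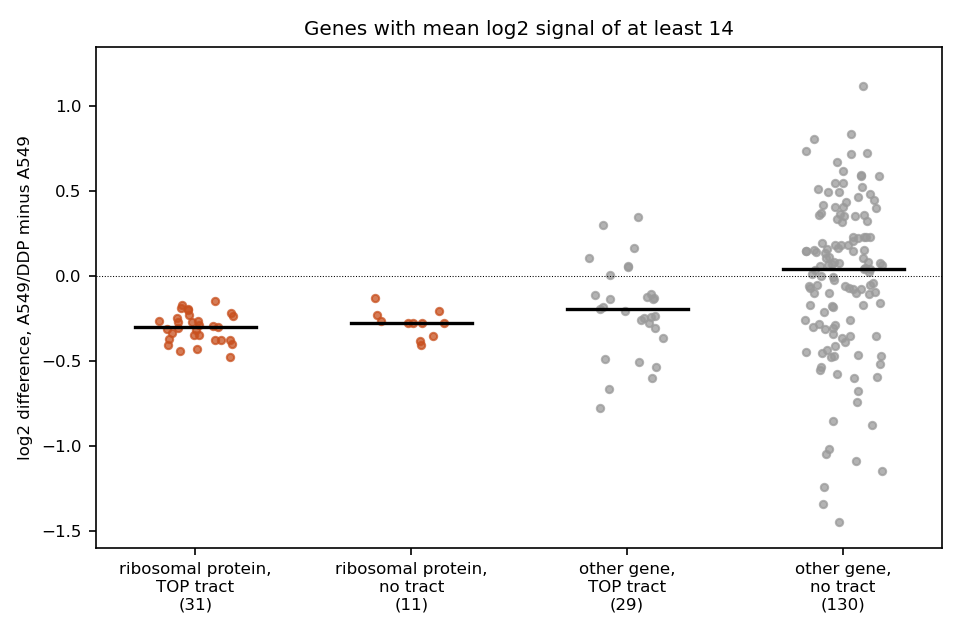
The log2 difference, A549/DDP minus A549, of genes with a mean log2 signal of at least 14, split by kind of gene and by whether a TOP tract begins at a listed start. Each point is a gene, bars are medians, and the number of genes stands under each column. The ribosomal protein columns hold the members only and lie wholly below 0, with medians of -0.30 and -0.28. The other genes have medians of -0.19 with a tract and 0.04 without. They are all genes outside the symbol pattern, among them the ribosomal protein genes RPS4X, RPS4Y1 and FAU.

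The regulators and builders of the ribosome gave another picture than its proteins. The 15 genes of mTORC1 and LARP1 control had a median of 0.04. SESN2, a leucine sensor that restrains mTORC1 and responds to stress, differed by -1.57, and was the only one of them at least 1.5-fold lower. RPS6KB2, an S6 kinase, differed by 0.91 and LARP1 by 0.62, while EIF4EBP2, a translation repressor that mTORC1 inactivates, had 9.34 on the array labelled A549/DDP and 8.79 on the A549 array, at 0.55. RPS6KB2 and LARP1 were the 2 genes at least 1.5-fold higher, against 15.6% of all expressed genes.

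The 16 genes of RNA polymerase I, which transcribes ribosomal RNA, and of its factors had a median of 0.23, with 11 higher on the array labelled A549/DDP. POLR1A, its largest subunit, had 9.84 on the array labelled A549/DDP and 8.84 on the A549 array, and TAF1A, of its promoter selectivity factor, differed by 1.26. RRN3, the initiation factor that responds to growth signals, differed by 0.37. POLR1D and POLR1C, subunits shared with RNA polymerase III, differed by -1.18 and -0.51, and POLR1E by -0.93. Subunits of the same enzyme thus differed in both directions. A difference of at least 1.5-fold was found upward in 2 of the 16 genes, against 15.6% of all expressed genes, and downward in 2, against 18%.

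Assembly factors were more often higher than lower on the array labelled A549/DDP. Of 36 factors of the small subunit 24 were higher, the median was 0.13, and 1.5-fold was reached upward by 10, against 15.6% of all expressed genes, and downward by 3, against 18%. EMG1, a methyltransferase of 18S ribosomal RNA, differed by 1.47, RRP9, a protein of the U3 particle, by 1.29 and TSR1 by 1.12, while the nuclease NOB1 differed by -0.72, UTP14A by -0.63 and the kinase RIOK1 by -0.61. Of 45 factors of the large subunit 29 were higher, the median was 0.25, and 1.5-fold was reached upward by 5 and downward by 4, against the same 15.6% and 18%. EIF6, which keeps new large subunits from joining too early, had 12.26 on the array labelled A549/DDP and 11.01 on the A549 array, at 1.25. The helicase DDX56 differed by 1.44 and the ATPase AFG2A by 1.13, while RSL24D1 differed by -0.86 and GNL3L and LAS1L both by -0.72. No assembly factor of either list differed by 3-fold.

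The 10 expressed genes of the box C/D and H/ACA particles, which guide the modification of ribosomal RNA, and of other nucleolar proteins had a median of 0.23. TCOF1, the nucleolar protein treacle, differed by 0.85, NOP58 by 0.58 and SNU13 by 0.56, whereas the nucleolar chaperone NPM1 differed by -0.20 and the methyltransferase FBL by -0.15. In the pathway by which free RPL11 signals to p53, MDM2 differed by 0.12, MDM4 by -1.06 and the p53 target CDKN1A by -0.73.

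Mitochondrial ribosomal proteins lay on the other side of 0 from the cytosolic ones. The 72 expressed genes had a median log2 signal of 11.74 on the array labelled A549/DDP and 11.43 on the A549 array, and a median difference of 0.21. Of them 51 were higher and 21 lower on the array labelled A549/DDP, 8 at least 1.5-fold higher, against 15.6% of all expressed genes, and 4 at least 1.5-fold lower, against 18%. The groups differ in brightness, and the difference between them was not tested.

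The size of the members' difference followed the scaling of the arrays. The median was -0.24 after each array was centred on its own median or fitted by loess, -0.32 after centring on those 3290 brightest genes, and -0.08 after quantile normalization or after centring on other genes with a mean of at least 15. The last of these moved the median of all expressed genes to 0.21. RNA integrity, read as the ratio of 3′ to 5′ signal, was 1.02 for GAPDH on the array labelled A549/DDP and 1.05 on the A549 array. For ACTB it was 3.70 on the array labelled A549/DDP and 4.21 on the A549 array. The part of RNA integrity was not tested.

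**Figure D5:**
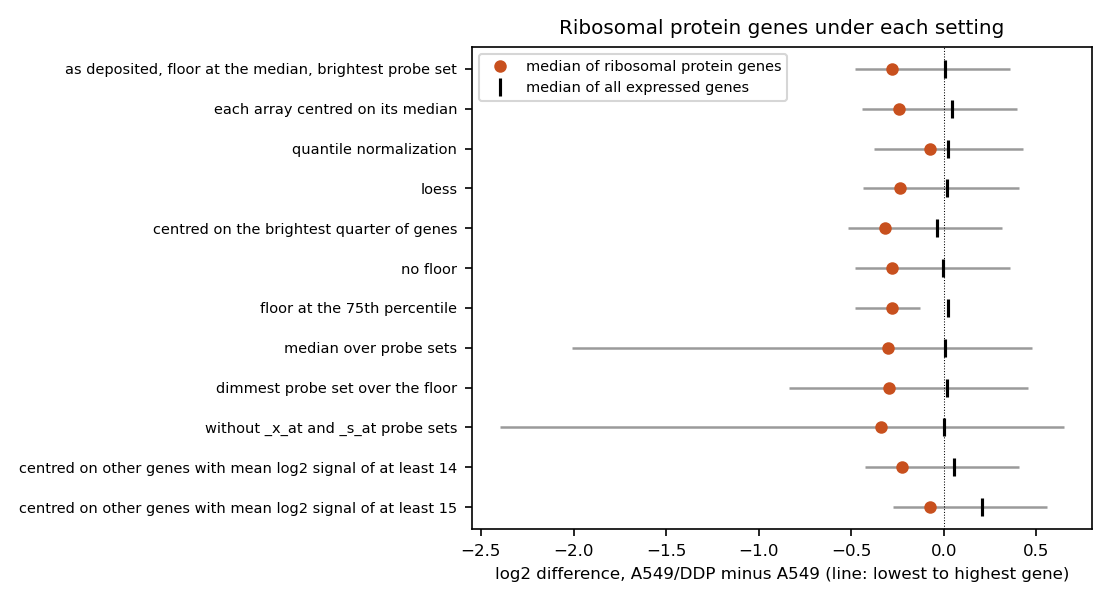
Each row is a way of scaling or summarising the arrays, with the median log2 difference of the ribosomal protein genes, A549/DDP minus A549, as a point, the range of single genes as a line and the median of all expressed genes as a tick. The members' median stays below 0 in every row shown, between -0.34 and -0.08.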

How the data were processed

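Log2 signals of 54675 probe sets were deposited by the authors, 1 array for each line. MAS5 and affy are named in the submitters' processing notes, with versions not given in the sources used here, whereas the study's methods name SCAN with UPC. The linear mean, trimmed by 2% at either end, was 500.1 on both arrays, as MAS5 scaling gives, and the values were used as deposited. A further table names other cells in its header, so its 4 signal and call columns were not used, nor were the authors' fold ratios in it.

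The platform annotation gave 41097 probe sets 1 gene, 1801 several and 11777 none, and 41043 of the first kind were matched to RefSeq symbols. Array precision is limited by 1 array for each line, so folds were described and no test was run. The members, gene lists and thresholds were chosen with earlier results of these data known. Named members were the 8 at each end of the differences, the 3 brightest, the 3 dimmest, X-linked genes and genes of the role lists; from other lists, all relatives and up to 3 genes at each end. Scripts used Python 3.11.15, pandas 2.3.3, numpy 2.4.6 and statsmodels 0.14.6 and were tested on simulated data. Alternatives were median centring, quantile normalization, loess (span 0.3, 3 iterations), centring on bright genes, other floors and other rules for probe sets.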

Additional observations from a re-analysis of the deposited data

How the results depend on the processing

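The median of the members stayed negative under each of the 11 alternatives tried, and it shifted by over 0.1 on the log2 scale under quantile normalization, to -0.076, and when centred on other genes with a mean signal of at least 15, to -0.0761. At least 1.2-fold lower were 20 genes with median centring, 20 with loess, 18 with centring on other genes of at least 14, 5 with quantile normalization and 1 with centring on other genes of at least 15. The centrings on other genes and the 1.2-fold threshold were chosen after seeing the data. With the median over probe sets, taken on each array separately, 2 genes were at least 3-fold and 5 at least 1.5-fold lower. The medians of a gene can then come from different probe sets on the arrays. RPL31 came to -2.01 in this way, while its own probe sets differed by -0.73, -2.40 and -0.19. With the dimmest probe set over the floor 5 genes were at least 1.5-fold lower. Without _x_at and _s_at probe sets, 28 genes were left, of which 23 were lower, 19 at least 1.2-fold, 4 at least 1.5-fold and 2 at least 3-fold, and 1 was at least 1.5-fold higher. That setting leaves fewer genes by construction, and the cause of these shifts was not tested. As deposited, 2.18% of all expressed genes were at least 3-fold lower, 18% at least 1.5-fold and 32.6% at least 1.2-fold. At least 1.5-fold higher were 15.6%. These shares were not taken under the alternatives, so the counts of members above have no matched share beside them. Of the values of named genes, 672 moved by less than 0.1 and 211 by more. These totals partly count the settings, since a centring shifts every gene by the same amount. All 86 named genes moved by more when centred on other genes of at least 15. Under each of the other centrings all 86 moved by less. No paired analysis was possible because each line has 1 array. Signals near the floor give only bounds, and no repeat array of either line was there to show how far 2 arrays of the same cells differ.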
